A study of Homo sapiens with 9 samples.

Results

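The genes of DNA replication and S phase were followed through 3 states of HaCaT, a line of human keratinocytes that grows without limit in culture. The set holds 53 genes of the 20263 in the deposited table, taken by symbol after matching Ensembl identifiers to names, and all 53 had enough counts to be tested. The 9 libraries of poly(A) RNA form 3 groups of 3. Glabridin libraries come from melanosome-laden cells given glabridin, a licorice flavonoid, melanosome libraries from melanosome-laden cells alone, and control libraries from cells with neither. Melanosomes are the pigment organelles that melanocytes hand to keratinocytes, and the series asks how glabridin promotes their breakdown. No dose of glabridin, no time of exposure and no source of the melanosomes could be given from the labels. Whether replicates were separate cultures is not labelled, and the p-values therefore rest on a spread among libraries that may be technical. The labels name no vehicle for the cells without glabridin.

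Replication begins in G1, when the origin recognition complex, CDC6 and CDT1 load the ring of MCM2 to MCM7 onto origins (licensing), while geminin (GMNN) holds CDT1 in check from S phase on. At the G1/S border cyclin E with CDK2, and the kinase CDC7, allow CDC45 and the GINS complex to join the ring and turn it into the moving helicase. Polymerases alpha, delta and epsilon then copy the strands with the PCNA clamp, and ribonucleotide reductase supplies the deoxynucleotides. Many of these genes are known targets of the E2F transcription factors, and basal keratinocytes switch them off as they leave the cell cycle.

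Because E2F motifs are known at many of these promoters, the start regions of the genes were searched. RefSeq windows (GRCh38.p14, 250 bases before to 50 after each start) were at hand for 45 of the 53 genes (not MCM4, MCM5, GINS4, POLD3, RPA2, RPA3, CCNE2 or CDK2). The motifs searched on both strands were TTTCCCGC, TTTGGCGC, TTTCGCGC and TTTGCCGC; TTTGGCGC and the reverse complement of TTTCGCGC can overlap, as they do at MCM6. At least 1 of the 4 stood in 24 of the 45 genes with a window (53.3%), against 719 of 11158 tested genes with one (6.44%). They were found in 7 of 10 licensing genes, in 4 of 6 genes of helicase activation and in 1 of 4 genes of nucleotide supply. The 5 stretches printed here belong to genes that behaved differently across the groups: E2F1 and MCM6 rose with melanosomes and fell with glabridin, POLA2 and PCNA ended below control, and CDC6 went up in both steps. Capitals mark the motifs, each sequence runs 5′ to 3′ on the strand of its gene, and the motif's first base is counted from the start site.

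E2F1: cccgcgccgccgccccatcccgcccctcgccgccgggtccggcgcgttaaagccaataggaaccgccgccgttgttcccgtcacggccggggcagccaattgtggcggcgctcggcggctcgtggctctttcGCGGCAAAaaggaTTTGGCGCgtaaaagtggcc
MCM6: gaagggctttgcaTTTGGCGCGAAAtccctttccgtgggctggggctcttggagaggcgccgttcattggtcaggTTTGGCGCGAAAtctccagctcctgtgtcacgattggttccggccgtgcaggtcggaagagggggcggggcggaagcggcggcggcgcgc
POLA2: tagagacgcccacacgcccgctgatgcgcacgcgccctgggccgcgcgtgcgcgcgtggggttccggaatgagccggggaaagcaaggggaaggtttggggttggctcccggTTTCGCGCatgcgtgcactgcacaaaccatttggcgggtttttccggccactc
PCNA: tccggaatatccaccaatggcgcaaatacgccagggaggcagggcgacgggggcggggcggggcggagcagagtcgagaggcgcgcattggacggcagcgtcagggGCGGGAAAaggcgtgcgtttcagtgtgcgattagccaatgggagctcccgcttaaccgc
CDC6: ggaacgctgtggccattcggaTTTGGCGCg

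The E2F1 stretch lies at chr20:33686386-33686550 (- strand, GRCh38.p14) and holds motifs at -33 and -20. The MCM6 stretch, chr2:135876444-135876608 (- strand, GRCh38.p14), holds 2 overlapping pairs that begin at -152 and -90. The POLA2 stretch, chr11:65261797-65261961 (+ strand, GRCh38.p14), has its motif at -53, and the PCNA stretch, chr20:5126623-5126787 (- strand, GRCh38.p14), at -59. At CDC6 the motif begins 8 bases after the start, within chr17:40287865-40287894 (+ strand, GRCh38.p14). Among the 45 genes, those with a motif had a median log2 fold change of -0.53 for glabridin over melanosome (19 of 24 lower, 1 higher), and those without had -0.24 (10 of 21 lower). The medians over all tested genes with and without a motif were 0.00 and 0.02. For melanosome over control these medians were 0.68 with a motif and 0.59 without, where 21 of 24 and 16 of 21 genes were higher, and -0.04 and -0.06 over all tested genes. For glabridin over control the medians were 0.20 with a motif (9 higher, 7 lower) and 0.23 without (10 higher, 3 lower), and 0.04 over all tested genes of either kind. Lower and higher here are calls as defined below, which were not counted by motif over all tested genes. Of all 13912 tested genes, 20.2% were lower and 23.7% higher for glabridin over melanosome, and 33% and 29.5% for melanosome over control. For glabridin over control 32.7% were lower and 37.6% higher. A match shows only that these letters are present.

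Levels are CPM, read counts scaled to library size with TMM factors. Fold changes are log2 with their standard error (SE). A gene was called when its adjusted p in edgeR's quasi-likelihood test, corrected over all 13912 tested genes, was under 0.05. Total counts ran from 42582054 to 46591852 in the glabridin libraries, from 39653425 to 46690787 in the melanosome libraries and from 41793696 to 45839573 in control. The 8 keratinocyte markers summed to 5359 to 7588 CPM in glabridin, 8133 to 8715 CPM in melanosome and 9966 to 10098 CPM in control libraries, most of it from KRT5 and KRT14. IVL, the marker of these that encodes the late differentiation protein involucrin, had 4.44, 3.79 and 4.75 CPM in glabridin, 31.6, 33.8 and 36.0 CPM in melanosome and 116, 111 and 116 CPM in control libraries, and it fell with glabridin over melanosome (-2.96 ± 0.09 SE, adjusted p = 1.37e-08) and with melanosomes over control (-1.76 ± 0.08 SE, adjusted p = 4.3e-08). Of the 8 keratinocyte markers, 2 (KRT17 and DSG3) were called higher and 3 lower for glabridin over melanosome. For melanosome over control 1 (KRT6A) was higher and 6 lower, and for glabridin over control 0 were higher and 4 lower. The 12 melanocyte markers summed to 1906 to 3624 CPM in glabridin libraries, 3273 to 3408 CPM in melanosome libraries and 148 to 157 CPM in control, where TYR, TRPM1 and OCA2 had no count. Most of the control sum was GPNMB, with 145, 149 and 140 CPM in control and 185, 187 and 184 CPM in melanosome libraries. The other markers were therefore much further apart between control and melanosome libraries than the sums. All 12 were called higher in glabridin and in melanosome libraries than in control. For glabridin over melanosome 1 of these markers (GPNMB) was called higher, 4 (DCT, OCA2, MLANA and MITF) lower and 7 were not called, with a median of -0.34. The part of this RNA in the values below was not tested. The 7 fibroblast markers summed to between 9.66 and 14.7 CPM in the 9 libraries, most of it from COL1A1. Of the 3 with enough counts to be tested, LUM was called higher for melanosome over control (3.15 ± 0.35 SE, adjusted p = 2.26e-05). COL3A1 was called lower there (-0.995 ± 0.204 SE, adjusted p = 0.00172), and COL1A1 was not called. For glabridin over control LUM was higher, and COL1A1 and COL3A1 were lower. For glabridin over melanosome COL1A1 alone was called, and it was lower. In bulk RNA, fewer cells in S phase, less of a transcript per cell and a different share of melanocyte RNA cannot be told apart.

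Replication genes stood higher in melanosome libraries than in control libraries, and at least 2 genes rose in each of the 8 role classes. Of the 53, 41 rose (77.4%, against 29.5% of all tested genes called higher), 2 fell (33% of tested genes were called lower) and 10 were not called. The median log2 fold change was 0.59, against -0.06 over all tested genes. The genes that supply nucleotides had the highest class median (1.63, 4 of 4 higher), followed by chromatin copying (1.07, 4 of 4), helicase activation (1.00, 6 of 7) and licensing (0.98, 10 of 12, with 1 lower). Clamp and clamp loader genes had a median of 0.50 (5 of 6 higher, 1 lower), the G1/S regulators 0.46 (4 of 6), the polymerases and primase 0.38 (6 of 9) and the single-strand binding and lagging strand genes 0.12 (2 of 5).

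With glabridin, replication genes of all 8 role classes stood lower than with melanosomes alone. Against melanosome libraries 32 of the 53 fell (60.4%, where 20.2% of all tested genes were called lower), 1 rose (23.7% of tested genes were called higher) and 20 were not called, with a median of -0.40 against 0.01 over all tested genes. Chromatin copying had the lowest class median (-0.72, 4 of 4 lower), then helicase activation (-0.65, 5 of 7), nucleotide supply (-0.59, 3 of 4) and licensing (-0.44, 9 of 12, with CDC6 higher). The medians of the other classes were -0.31 for polymerases and primase (4 of 9 lower), -0.28 for the clamp and its loader (2 of 6), -0.24 for single-strand binding and the lagging strand (3 of 5) and -0.22 for G1/S control (2 of 6). Against control, glabridin libraries had 22 of the 53 higher (41.5%, against 37.6% of tested genes), 11 lower (20.8%, against 32.7%) and 20 not called, with a median of 0.20 against 0.03. The share higher is near that of all genes. In either direction, 43.9% of tested genes were called for glabridin over melanosome, 62.5% for melanosome over control and 70.3% for glabridin over control. The 3 comparisons share libraries, so their values are set side by side and not tested against each other.

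**Figure D1:**
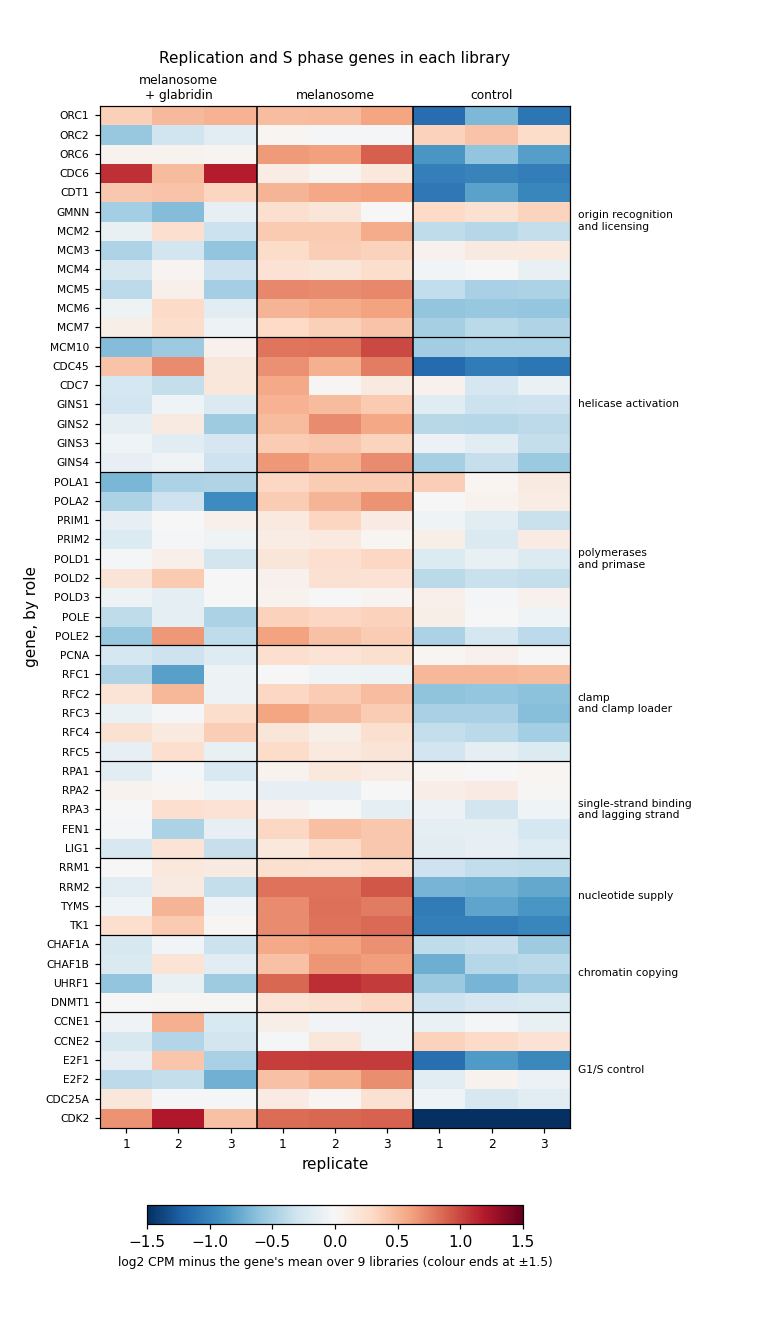
Level of each of the 53 genes in the 9 libraries, as log2 CPM minus the gene's mean over the libraries (red higher, blue lower, colours ending at ±1.5), with genes in rows by role and libraries in columns by group. Most rows are reddest in the 3 melanosome libraries, where 41 genes rose over control, while CDC6 is reddest under glabridin and CDK2 is at the end of the blue scale in control.

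By gene, 12 of the 53 fell with glabridin, had risen with melanosomes and still stood above control. A further 11 had the same pair of changes and could not be told from control in the glabridin libraries, and 5 (MCM3, POLA2, POLE, PCNA and E2F2) had the same pair and ended below control. Another 8 rose with melanosomes, were not called between glabridin and melanosome, and stayed above control with glabridin (ORC1, CDT1, CDC45, POLD2, RFC2, RFC4, RRM1 and CDK2). These patterns were not counted over all tested genes, and their comparisons share libraries, so the counts describe the 53 genes alone. Of the glabridin libraries, replicate 2 was the highest of its group at 35 of the 53 genes and the lowest at 10, and it also held the highest melanocyte marker sum. Replicate 3 was the lowest of its group at 27. Of the melanosome libraries, replicate 3 was the highest at 28 and replicate 1 the lowest at 26. Such ranks were not counted over all tested genes.

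Licensing held the gene that departed from the rest. CDC6 (chromosome 17, 40287633 to 40304657, + strand, GRCh38), the ATPase that with the origin recognition complex loads the MCM ring, had 66.8, 43.5 and 70.8 CPM in glabridin, 33.7, 32.0 and 34.8 CPM in melanosome and 15.3, 15.6 and 15.3 CPM in control libraries. All 3 glabridin libraries lay above the melanosome libraries, which lay above control. CDC6 rose 1.80-fold with glabridin over melanosome (0.85 ± 0.15 SE, adjusted p = 0.00104) and 2.18-fold with melanosomes over control (1.12 ± 0.15 SE, adjusted p = 0.000112), a 3.92-fold rise for glabridin over control (1.97 ± 0.16 SE, adjusted p = 1.07e-06). Replicate 2 of the glabridin group was the lowest of its 3, and leaving out single libraries moved the glabridin over melanosome value between 0.68 and 1.04.

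Its partner CDT1, the other loader of the ring, had 59.1, 59.9 and 55.8 CPM in glabridin, 63.6, 67.1 and 68.1 CPM in melanosome and 21.3, 25.7 and 22.7 CPM in control libraries. Melanosome libraries were the highest and the glabridin libraries lay just below them without overlap. Against control both groups were far up, at 1.33 ± 0.08 SE, adjusted p = 1.48e-07 for glabridin and 1.51 ± 0.08 SE, adjusted p = 9.63e-08 for melanosome. The step between glabridin and melanosome was not called (-0.18 ± 0.08 SE, adjusted p = 0.0776), though it was with RLE factors (adjusted p = 0.0388), with DESeq2 (adjusted p = 0.024) and without glabridin replicate 1 or 2 (edgeR adjusted p = 0.0428 and 0.0468). Library totals alone (-0.36, adjusted p = 0.00256), limma on log2(TPM + 1) (-0.36, adjusted p = 0.00234) and the fit of these groups alone (-0.21, adjusted p = 0.0495) called it too.

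GMNN, whose product geminin blocks CDT1, differed, with 10.9, 9.92 and 14.3 CPM in glabridin, 18.3, 17.6 and 15.5 CPM in melanosome and 19.1, 18.1 and 19.6 CPM in control libraries. Here glabridin libraries were the lowest, and melanosome and control libraries overlapped in part. It fell with glabridin over melanosome (-0.55 ± 0.13 SE, adjusted p = 0.0071) and over control (-0.69 ± 0.13 SE, adjusted p = 0.000797), while melanosome over control was not called (-0.15 ± 0.13 SE, adjusted p = 0.345). Per transcript length, the ratio of CDT1 to GMNN in TPM was 3.41, 3.80 and 2.46 in glabridin libraries, 2.19, 2.40 and 2.77 in melanosome libraries and 0.702, 0.890 and 0.726 in control. That ratio overlapped between glabridin and melanosome libraries, and both lay above control. The ratio of CDC6 to GMNN did not overlap between any of the groups, at 2.47, 1.77 and 1.99 in glabridin libraries, 0.741, 0.731 and 0.904 in melanosome libraries and 0.321, 0.346 and 0.312 in control.

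The subunits of the origin recognition complex differed among themselves. ORC1, its ATPase subunit, had 16.9, 18.3 and 18.8 CPM in glabridin, 18.2, 18.3 and 19.7 CPM in melanosome and 5.96, 8.23 and 6.18 CPM in control libraries, so that glabridin and melanosome libraries overlapped and both lay above control (-0.06 ± 0.12 SE, adjusted p = 0.736 for glabridin over melanosome, and 1.46 ± 0.13 SE, adjusted p = 3.69e-06 for melanosome over control). ORC6, a small subunit, had 10.9, 11.0 and 10.8 CPM in glabridin, 16.4, 16.1 and 19.6 CPM in melanosome and 5.77, 7.01 and 5.93 CPM in control libraries. Melanosome libraries were the highest and control the lowest, with glabridin libraries between them and no overlap, at -0.67 ± 0.11 SE, adjusted p = 0.000669 for glabridin over melanosome and 1.47 ± 0.11 SE, adjusted p = 1.56e-06 for melanosome over control. ORC2, a core subunit, ran the other way with 13.9, 16.7 and 18.3 CPM in glabridin, 20.9, 20.3 and 20.2 CPM in melanosome and 26.1, 27.6 and 24.9 CPM in control libraries. Control was the highest and glabridin the lowest, again without overlap. It fell in melanosome libraries against control (-0.36 ± 0.10 SE, adjusted p = 0.0118) and in glabridin libraries against control (-0.69 ± 0.10 SE, adjusted p = 0.000149). The smaller fall of glabridin below melanosome (-0.33 ± 0.10 SE, adjusted p = 0.0246) lost its call without any 1 of the melanosome libraries (adjusted p between 0.0578 and 0.0705). The fall with melanosomes lost it when library totals alone set the scale (-0.19, adjusted p = 0.158) and with limma on log2(TPM + 1) (-0.16, adjusted p = 0.231).

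All 6 MCM subunits of the helicase ring rose with melanosomes and fell with glabridin, by unequal amounts. In TPM, which allows levels to be compared between genes, glabridin libraries averaged 58.5 for MCM2, 33.8 for MCM3, 59.9 for MCM4, 19.9 for MCM5, 29.4 for MCM6 and 110.2 for MCM7. Melanosome libraries averaged 93.9 for MCM2, 65.6 for MCM3, 89.0 for MCM4, 44.6 for MCM5, 48.3 for MCM6 and 151 for MCM7, and control 46.4 for MCM2, 50.0 for MCM3, 65.2 for MCM4, 17.6 for MCM5, 19.4 for MCM6 and 76.2 for MCM7 (means of 3 libraries). MCM7 was the most abundant and MCM5 the least in each group, and MCM3 stood above MCM2 in control but below it in both other groups.

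MCM5 moved most among the ring genes, with 26.5, 36.7 and 24.4 CPM in glabridin, 57.2, 56.6 and 57.4 CPM in melanosome and 26.9, 24.8 and 25.1 CPM in control libraries. Glabridin and control libraries overlapped, and melanosome libraries were above both, 1.96-fold over glabridin and 2.23-fold over control (-0.97 ± 0.13 SE, adjusted p = 0.000187 for glabridin over melanosome, 1.16 ± 0.13 SE, adjusted p = 2.79e-05 for melanosome over control). Glabridin over control was not called (0.19 ± 0.13 SE, adjusted p = 0.22), but was without glabridin replicate 3 (0.30, adjusted p = 0.0253). MCM3 had 43.1, 49.3 and 39.4 CPM in glabridin, 72.1, 76.6 and 75.7 CPM in melanosome and 62.5, 65.6 and 65.7 CPM in control libraries. Its glabridin libraries lay below all others (-0.77 ± 0.08 SE, adjusted p = 4.09e-05 over melanosome, -0.56 ± 0.08 SE, adjusted p = 0.000127 over control). Its melanosome libraries lay just above control (0.21 ± 0.08 SE, adjusted p = 0.0418), a call lost when any 1 of the 6 libraries compared was left out (adjusted p between 0.0538 and 0.13). MCM6, with the paired motifs shown above, had 39.4, 50.7 and 37.3 CPM in glabridin, 59.3, 61.1 and 63.0 CPM in melanosome and 27.6, 28.1 and 27.6 CPM in control libraries. The groups did not overlap and glabridin lay between the other groups (-0.53 ± 0.10 SE, adjusted p = 0.00217 over melanosome and 0.61 ± 0.11 SE, adjusted p = 0.000376 over control). MCM2 (-0.49 ± 0.12 SE, adjusted p = 0.00797 for glabridin over melanosome, 0.84 ± 0.12 SE, adjusted p = 0.000186 for melanosome over control) and MCM7 (-0.27 ± 0.08 SE, adjusted p = 0.0211, 0.81 ± 0.08 SE, adjusted p = 1.22e-05) also stayed above control with glabridin, by 0.35 ± 0.12 and 0.54 ± 0.08 (adjusted p = 0.0251 and 0.000143). MCM4 changed least with melanosomes after MCM3 (-0.38 ± 0.09 SE, adjusted p = 0.00479 for glabridin over melanosome, 0.27 ± 0.09 SE, adjusted p = 0.019 for melanosome over control).

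Of the 7 genes that turn the loaded ring into a helicase, 6 rose with melanosomes and 5 fell with glabridin. MCM10, which helps the helicase start, had 2.81, 3.02 and 4.62 CPM in glabridin, 7.67, 7.76 and 8.75 CPM in melanosome and 3.07, 3.17 and 3.16 CPM in control libraries. Melanosome libraries were the highest, and glabridin and control overlapped. It fell with glabridin by the most of this class (-1.21 ± 0.17 SE, adjusted p = 0.000287) after a rise with melanosomes (1.36 ± 0.17 SE, adjusted p = 7.18e-05). GINS4, a subunit of the GINS complex, had 6.49, 6.78 and 5.65 CPM in glabridin, 11.0, 10.2 and 11.5 CPM in melanosome and 4.97, 5.54 and 4.77 CPM in control libraries. Here too the melanosome libraries stood apart (-0.79 ± 0.11 SE, adjusted p = 0.000246 for glabridin over melanosome, 1.10 ± 0.11 SE, adjusted p = 1.32e-05 for melanosome over control), and glabridin lay slightly above control (0.31 ± 0.11 SE, adjusted p = 0.0324), a call lost in 4 of the 6 fits that left out 1 library, in the fit of these groups alone (adjusted p = 0.0665) and with limma (adjusted p = 0.0516). GINS1, GINS2 and GINS3 had log2 fold changes of -0.65, -0.74 and -0.53 for glabridin over melanosome and of 0.73, 1.00 and 0.57 for melanosome over control, all called. None was called for glabridin over control.

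CDC45, which joins the ring with GINS, behaved otherwise and had 17.0, 20.7 and 14.3 CPM in glabridin, 20.4, 18.3 and 21.7 CPM in melanosome and 5.68, 6.13 and 5.96 CPM in control libraries. Glabridin and melanosome libraries overlapped, and both stood above control, 2.92-fold for glabridin (1.55 ± 0.14 SE, adjusted p = 2.74e-06) and 3.40-fold for melanosome (1.77 ± 0.14 SE, adjusted p = 1.72e-06). Between glabridin and melanosome it was not called (-0.22 ± 0.13 SE, adjusted p = 0.199), but it was without glabridin replicate 2, its highest (-0.37, adjusted p = 0.012). It was also called with library totals alone (-0.40, adjusted p = 0.0225) and with limma on log2(TPM + 1) (-0.40, adjusted p = 0.0122). The kinase gene CDC7 was not called in any of the 3 comparisons (-0.39 ± 0.18 SE, adjusted p = 0.111 for glabridin over melanosome, 0.35 ± 0.18 SE, adjusted p = 0.12 for melanosome over control).

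**Figure D2:**
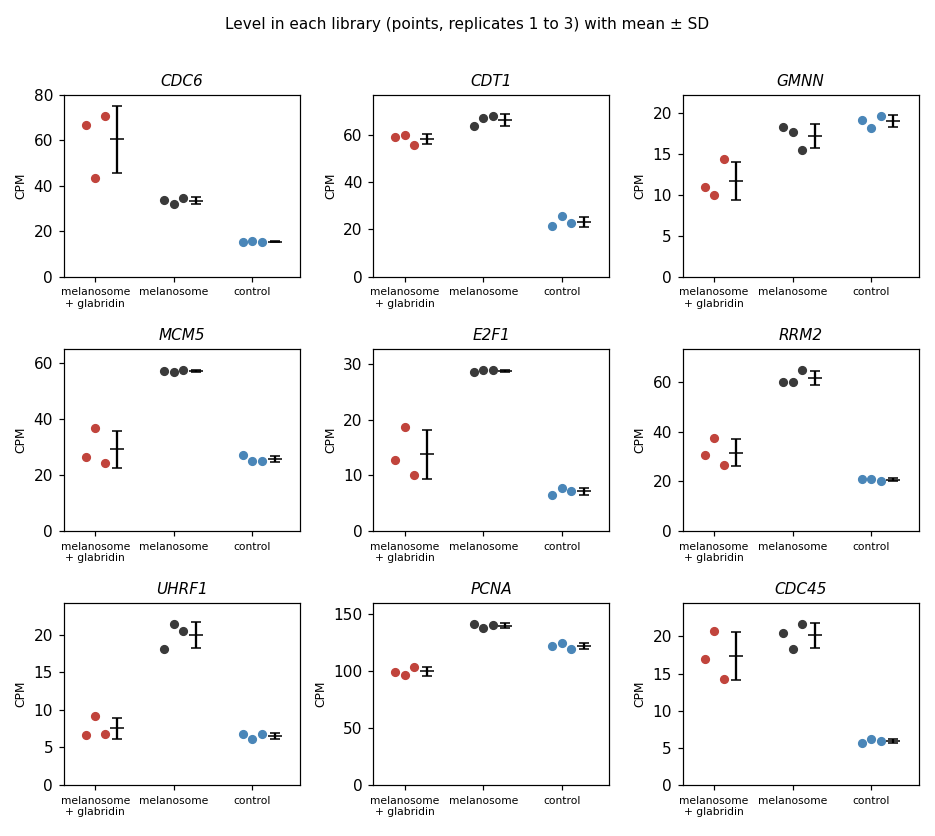
CPM of CDC6, CDT1, GMNN, MCM5, E2F1, RRM2, UHRF1, PCNA and CDC45 in each library (points, replicates 1 to 3 from left to right) with the group mean and SD, glabridin-treated cells at the left and control at the right. The melanosome libraries are highest for MCM5, E2F1, RRM2, UHRF1 and PCNA, and the glabridin libraries are highest for CDC6 (43.5 to 70.8 CPM) and lowest for GMNN and PCNA.

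Of the 9 polymerase and primase genes, POLA1, POLA2 and POLE ended below control with glabridin. POLA1, the catalytic subunit of polymerase alpha, had 5.75, 6.63 and 6.72 CPM in glabridin, 11.4, 12.0 and 12.0 CPM in melanosome and 11.9, 9.36 and 10.1 CPM in control libraries. The glabridin libraries were all below the rest (-0.89 ± 0.11 SE, adjusted p = 0.000141 over melanosome, -0.72 ± 0.11 SE, adjusted p = 0.000229 over control), while melanosome and control overlapped (0.18 ± 0.11 SE, adjusted p = 0.193). Melanosome over control was called with library totals alone (0.34, adjusted p = 0.0221), with limma on log2(TPM + 1) (0.30, adjusted p = 0.0256) and in the fit of these groups alone (0.26, adjusted p = 0.0242). POLA2, the second subunit of polymerase alpha, had 8.84, 9.87 and 6.40 CPM in glabridin, 16.0, 17.4 and 19.6 CPM in melanosome and 12.3, 12.8 and 13.2 CPM in control libraries. No groups overlapped, with melanosome highest and glabridin lowest (-1.08 ± 0.15 SE, adjusted p = 0.000219 for glabridin over melanosome, -0.61 ± 0.15 SE, adjusted p = 0.00375 for glabridin over control). Its rise with melanosomes (0.47 ± 0.15 SE, adjusted p = 0.016) lost its call without melanosome replicate 3 (0.39, adjusted p = 0.0681) or control replicate 1 (0.44, adjusted p = 0.0558).

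POLE, the catalytic subunit of the leading strand polymerase, had 29.1, 34.4 and 27.3 CPM in glabridin, 48.1, 47.0 and 48.3 CPM in melanosome and 40.3, 38.0 and 36.2 CPM in control libraries. The order was the same and without overlap, at -0.66 ± 0.09 SE, adjusted p = 0.000214 for glabridin over melanosome, 0.32 ± 0.09 SE, adjusted p = 0.00926 for melanosome over control and -0.34 ± 0.09 SE, adjusted p = 0.00657 for glabridin over control. Its partner POLE2 was the lowest expressed of the class, with 1.10, 2.56 and 1.25 CPM in glabridin, 2.48, 2.20 and 2.13 CPM in melanosome and 1.17, 1.36 and 1.24 CPM in control libraries. Replicate 2 of the glabridin group stood above the melanosome libraries and the other glabridin libraries beside control. Glabridin over melanosome was not called with it (-0.48 ± 0.28 SE, adjusted p = 0.182) and was without it (-0.95, adjusted p = 0.00131). With all libraries, limma on log2(TPM + 1) called it (-0.51, adjusted p = 0.0326). The rise with melanosomes (0.86 ± 0.28 SE, adjusted p = 0.0226) lost its call without melanosome replicate 1, control replicate 1 or control replicate 3 (adjusted p = 0.0681, 0.0686 and 0.0601). POLD2, an accessory subunit of polymerase delta, had 166, 191 and 144 CPM in glabridin, 151, 169 and 169 CPM in melanosome and 109.8, 115 and 113 CPM in control libraries. Glabridin and melanosome libraries overlapped (0.03 ± 0.09 SE, adjusted p = 0.802), and both were above control (0.53 ± 0.09 SE, adjusted p = 0.000627 for melanosome). POLD1, the catalytic subunit of polymerase delta, moved by -0.31 ± 0.09 SE, adjusted p = 0.0161 for glabridin over melanosome and by 0.42 ± 0.09 SE, adjusted p = 0.00208 for melanosome over control. PRIM1, the catalytic primase subunit, rose with melanosomes (0.38 ± 0.11 SE, adjusted p = 0.0127), and neither PRIM2 nor POLD3 was called in any of the 3 comparisons.

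PCNA, the sliding clamp, had 99.0, 96.2 and 104 CPM in glabridin, 141, 138 and 141 CPM in melanosome and 122, 124 and 119 CPM in control libraries. The replicates lay close together and no groups overlapped, with melanosome highest and glabridin lowest, at -0.49 ± 0.05 SE, adjusted p = 4.64e-05 for glabridin over melanosome, 0.20 ± 0.05 SE, adjusted p = 0.00749 for melanosome over control and -0.29 ± 0.05 SE, adjusted p = 0.000623 for glabridin over control. The subunits of replication factor C, which opens the clamp, did not move as a unit. RFC1, the large subunit, had 28.3, 22.0 and 36.8 CPM in glabridin, 38.5, 37.0 and 36.7 CPM in melanosome and 54.8, 54.8 and 53.9 CPM in control libraries. Control libraries were the highest, and glabridin replicate 3 overlapped the melanosome libraries. It fell with melanosomes (-0.54 ± 0.14 SE, adjusted p = 0.00728) and in glabridin libraries against control (-0.91 ± 0.14 SE, adjusted p = 0.000215). The fall with melanosomes lost its call with library totals alone (-0.37, adjusted p = 0.0651) and with limma on log2(TPM + 1) (-0.35, adjusted p = 0.104). Glabridin over melanosome was not called (-0.37 ± 0.14 SE, adjusted p = 0.062), but was without glabridin replicate 3 (-0.57, adjusted p = 0.000292), with RLE factors (-0.42, adjusted p = 0.0261) and with DESeq2 (-0.42, adjusted p = 0.0116). Library totals alone (-0.54, adjusted p = 0.0197) and limma on log2(TPM + 1) (-0.55, adjusted p = 0.024) called it as well.

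The small subunits RFC2 and RFC3 ran opposite to RFC1 against control. RFC2 had 45.6, 56.0 and 37.4 CPM in glabridin, 49.1, 51.5 and 54.6 CPM in melanosome and 26.0, 26.4 and 25.8 CPM in control libraries, so that glabridin libraries scattered around the melanosome level (-0.16 ± 0.12 SE, adjusted p = 0.313) and both were above control (0.99 ± 0.12 SE, adjusted p = 6.11e-05 for melanosome). Without glabridin replicate 2, glabridin over melanosome was called (-0.32, adjusted p = 0.00846). It was also called with library totals alone (-0.34, adjusted p = 0.0288) and with limma on log2(TPM + 1) (-0.36, adjusted p = 0.00989). RFC3 had 12.9, 13.6 and 16.7 CPM in glabridin, 20.9, 19.4 and 18.1 CPM in melanosome and 9.92, 9.86 and 8.93 CPM in control libraries. All groups were apart, with glabridin in the middle (-0.44 ± 0.11 SE, adjusted p = 0.0102 over melanosome, 0.59 ± 0.12 SE, adjusted p = 0.000956 over control). RFC4 (0.59 ± 0.09 SE, adjusted p = 0.000234) and RFC5 (0.42 ± 0.11 SE, adjusted p = 0.00587) rose with melanosomes as well, and neither was called for glabridin over melanosome.

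The genes that bind single-stranded DNA changed little. RPA1, the large subunit of the single-strand binding protein RPA, had 182, 199.9 and 173 CPM in glabridin, 210.4, 227 and 219.6 CPM in melanosome and 207, 204 and 207 CPM in control libraries. Glabridin libraries were below the melanosome libraries (-0.24 ± 0.06 SE, adjusted p = 0.00921) and overlapped with none of the control libraries (-0.15 ± 0.06 SE, adjusted p = 0.0466), the last a call lost in 5 of the 6 fits that left out a library, with RLE factors (adjusted p = 0.113) and with DESeq2 (adjusted p = 0.136). For melanosome over control RPA1 was not called (0.09 ± 0.06 SE, adjusted p = 0.228), though its melanosome libraries all lay above control. It was called higher in the fit of these groups alone (0.17, adjusted p = 0.000612), with library totals alone (0.26, adjusted p = 0.00133) and with limma on log2(TPM + 1) (0.27, adjusted p = 0.000271). Its partner RPA2 was not called in any comparison, and RPA3 was called for glabridin over control alone (0.30 ± 0.09 SE, adjusted p = 0.014). FEN1, the flap nuclease that trims Okazaki fragments, had 35.2, 25.6 and 32.7 CPM in glabridin, 43.9, 48.4 and 46.9 CPM in melanosome and 32.3, 32.3 and 29.6 CPM in control libraries. Melanosome libraries stood apart, and glabridin and control overlapped (-0.57 ± 0.11 SE, adjusted p = 0.00178 for glabridin over melanosome, 0.56 ± 0.11 SE, adjusted p = 0.00127 for melanosome over control). LIG1, the ligase that seals them, had 26.2, 35.8 and 24.5 CPM in glabridin, 34.7, 37.9 and 41.0 CPM in melanosome and 27.6, 28.6 and 27.2 CPM in control libraries. Glabridin replicate 2 lay within the melanosome range, and the fall (-0.40 ± 0.13 SE, adjusted p = 0.0309) lost its call without glabridin replicate 1 or 3 or melanosome replicate 2 or 3 (adjusted p between 0.0541 and 0.113) and in the fit of these groups alone (adjusted p = 0.056). Its rise with melanosomes (0.45 ± 0.13 SE, adjusted p = 0.0124) lost its call without melanosome replicate 3 (0.39, adjusted p = 0.0525).

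All 4 genes of nucleotide supply rose with melanosomes. RRM2 (chromosome 2, 10120698 to 10131419, + strand, GRCh38), the small subunit of ribonucleotide reductase that limits its activity in S phase, had 30.5, 37.6 and 26.6 CPM in glabridin, 59.9, 60.1 and 64.9 CPM in melanosome and 21.1, 20.9 and 20.0 CPM in control libraries. Melanosome libraries were 2.98-fold above control (1.58 ± 0.11 SE, adjusted p = 9.68e-07) and glabridin libraries lay between, without overlap (-0.97 ± 0.11 SE, adjusted p = 6.81e-05 over melanosome, 0.61 ± 0.11 SE, adjusted p = 0.000622 over control). RRM1, the large subunit, had 104, 115 and 113 CPM in glabridin, 122, 121 and 126 CPM in melanosome and 83.1, 80.1 and 79.0 CPM in control libraries. The groups did not overlap, but glabridin over melanosome was not called (-0.15 ± 0.06 SE, adjusted p = 0.056). TK1, the thymidine salvage kinase, had 90.9, 101 and 78.1 CPM in glabridin, 125, 134 and 138 CPM in melanosome and 37.6, 37.5 and 38.9 CPM in control libraries. It rose 3.48-fold with melanosomes (1.80 ± 0.09 SE, adjusted p = 6.02e-08), and the glabridin libraries lay between the groups without overlap (-0.56 ± 0.09 SE, adjusted p = 0.000494 over melanosome, 1.24 ± 0.09 SE, adjusted p = 5.13e-07 over control). TYMS, which makes thymidylate, had 12.5, 18.6 and 12.5 CPM in glabridin, 21.3, 23.1 and 22.4 CPM in melanosome and 6.28, 7.51 and 7.10 CPM in control libraries. The glabridin libraries were again intermediate and apart (-0.62 ± 0.15 SE, adjusted p = 0.00669 over melanosome, 1.68 ± 0.15 SE, adjusted p = 6.2e-06 for melanosome over control).

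RRM2B, the stress-inducible alternative small subunit, is no member of the set and had 19.9, 14.8 and 27.4 CPM in glabridin, 17.7, 14.5 and 12.9 CPM in melanosome and 12.1, 11.3 and 15.0 CPM in control libraries, with all groups overlapping. It was not called for glabridin over melanosome (0.46 ± 0.21 SE, adjusted p = 0.0962) and was higher for glabridin over control (0.70 ± 0.21 SE, adjusted p = 0.0118). The ratio of RRM2 to RRM2B in TPM was 2.08, 3.43 and 1.31 in glabridin libraries, 4.57, 5.61 and 6.82 in melanosome libraries and 2.37, 2.52 and 1.80 in control. Melanosome libraries thus had the highest ratio without overlap, and glabridin and control libraries overlapped.

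Genes that copy chromatin behind the fork held the steepest fall with glabridin. UHRF1 (chromosome 19, 4903080 to 4962154, + strand, GRCh38), which recognises hemimethylated DNA and brings in the maintenance methyltransferase, had 6.60, 9.17 and 6.86 CPM in glabridin, 18.1, 21.4 and 20.6 CPM in melanosome and 6.76, 6.13 and 6.80 CPM in control libraries. Glabridin and control libraries overlapped, and melanosome libraries were far above both (-1.41 ± 0.13 SE, adjusted p = 1.79e-05 for glabridin over melanosome, 1.61 ± 0.14 SE, adjusted p = 3.15e-06 for melanosome over control, 0.20 ± 0.14 SE, adjusted p = 0.217 for glabridin over control). DNMT1, that methyltransferase, changed less, with 71.2, 71.7 and 71.6 CPM in glabridin, 81.5, 83.6 and 87.5 CPM in melanosome and 57.3, 59.4 and 60.3 CPM in control libraries. No groups overlapped, and glabridin was in the middle (-0.24 ± 0.06 SE, adjusted p = 0.00642 over melanosome, 0.28 ± 0.06 SE, adjusted p = 0.0012 over control). CHAF1A, the large subunit of chromatin assembly factor 1, had 22.9, 26.2 and 21.6 CPM in glabridin, 39.9, 40.9 and 43.5 CPM in melanosome and 20.7, 21.2 and 18.6 CPM in control libraries. Its glabridin libraries were near control (0.23 ± 0.09 SE, adjusted p = 0.0511, not called) and below melanosome (-0.81 ± 0.09 SE, adjusted p = 6.52e-05). Glabridin over control was called with RLE factors, library totals, DESeq2 and limma and without glabridin replicate 3 (adjusted p between 0.0125 and 0.0447). CHAF1B, another subunit, had 8.15, 10.9 and 8.43 CPM in glabridin, 12.8, 15.0 and 14.6 CPM in melanosome and 5.68, 7.01 and 7.12 CPM in control libraries. It too was highest in melanosome libraries (-0.63 ± 0.14 SE, adjusted p = 0.00391 for glabridin over melanosome, 1.10 ± 0.14 SE, adjusted p = 6.81e-05 for melanosome over control). Its call for glabridin over control (0.47 ± 0.14 SE, adjusted p = 0.0117) was lost without control replicate 1 (0.37, adjusted p = 0.0545).

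**Figure D3:**
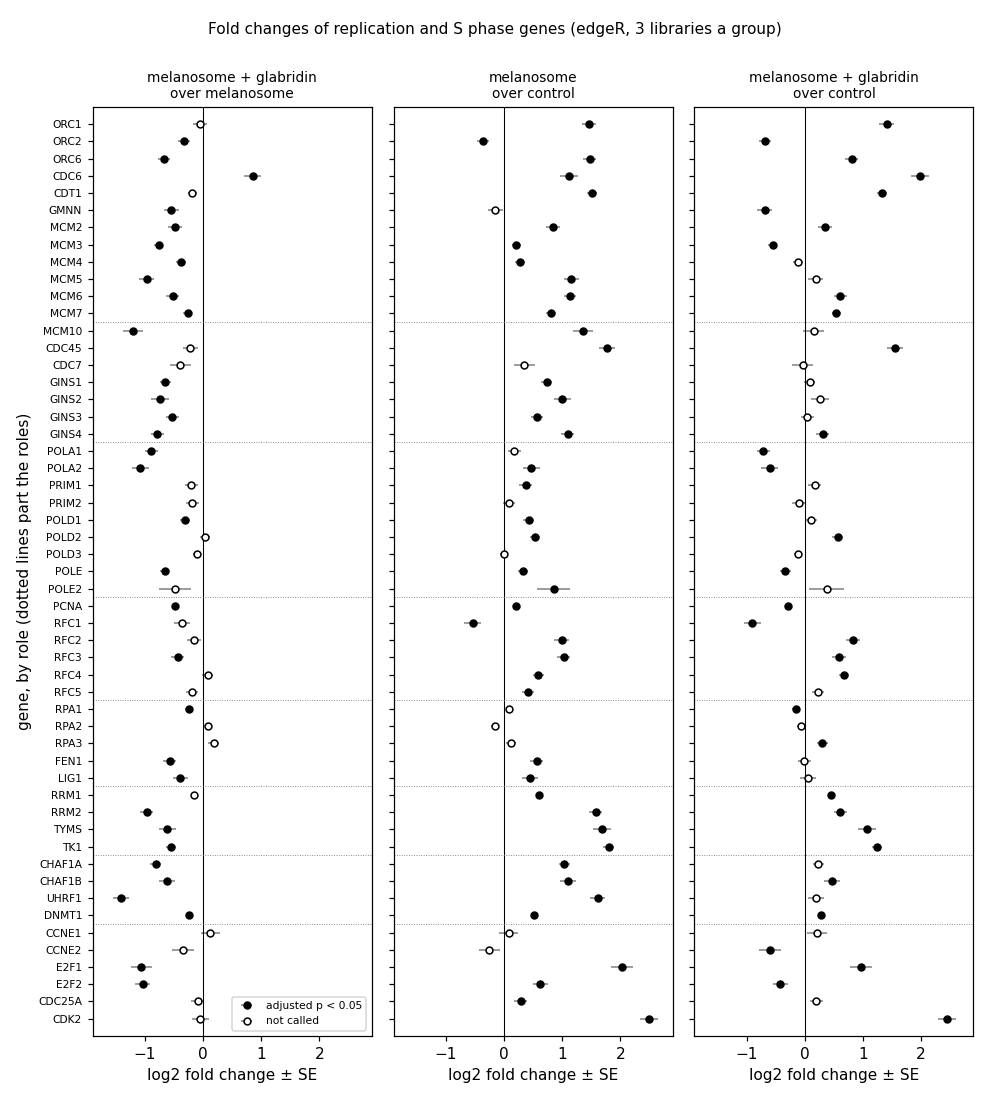
Log2 fold change with SE of the 53 genes, by role from top to bottom, for glabridin over melanosome (left), melanosome over control (middle) and glabridin over control (right), with filled points for adjusted p under 0.05 in edgeR. Points lie mostly left of 0 in the left panel (32 lower, CDC6 alone higher) and mostly right of 0 in the middle panel (41 higher, ORC2 and RFC1 lower).

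Among the G1/S regulators E2F1 and E2F2 changed in all 3 comparisons, while neither E cyclin was called between glabridin and melanosome or between melanosome and control. E2F1 (chromosome 20, 33675683 to 33686404, - strand, GRCh38), a transcription factor that switches on many replication genes, had 12.8, 18.6 and 10.0 CPM in glabridin, 28.6, 28.9 and 29.0 CPM in melanosome and 6.37, 7.73 and 7.17 CPM in control libraries. Its melanosome libraries were 4.07-fold above control (2.02 ± 0.19 SE, adjusted p = 7.29e-06). Its glabridin libraries lay between, without overlap (-1.06 ± 0.18 SE, adjusted p = 0.000935 over melanosome, 0.96 ± 0.19 SE, adjusted p = 0.000969 over control). E2F2, a related activator, had 4.58, 4.67 and 3.64 CPM in glabridin, 8.12, 8.70 and 9.70 CPM in melanosome and 5.36, 6.22 and 5.66 CPM in control libraries. Glabridin was the lowest group and melanosome the highest (-1.04 ± 0.13 SE, adjusted p = 0.000116 for glabridin over melanosome, 0.62 ± 0.13 SE, adjusted p = 0.00174 for melanosome over control). Glabridin over control (-0.42 ± 0.13 SE, adjusted p = 0.0147) lost its call without control replicate 2 (-0.36, adjusted p = 0.0598). E2F3, the other activator of the family and no member of the set, was not called for glabridin over melanosome (0.21 ± 0.15 SE, adjusted p = 0.3) and fell with melanosomes over control (-0.51 ± 0.15 SE, adjusted p = 0.0145). CCNE1, cyclin E1, which with CDK2 starts S phase, had 10.5, 15.7 and 9.29 CPM in glabridin, 11.5, 10.5 and 10.4 CPM in melanosome and 10.1, 10.6 and 10.0 CPM in control libraries. Apart from glabridin replicate 2 the libraries lay between 9.29 and 11.5 CPM, and no comparison was called (0.12 ± 0.17 SE, adjusted p = 0.58 for glabridin over melanosome, 0.08 ± 0.17 SE, adjusted p = 0.702 for melanosome over control). Without glabridin replicate 3, glabridin over control was called (0.35, adjusted p = 0.0426). CCNE2, cyclin E2, was low, with 0.898, 0.779 and 0.876 CPM in glabridin, 1.05, 1.20 and 1.02 CPM in melanosome and 1.35, 1.29 and 1.24 CPM in control libraries. It fell in glabridin libraries against control (-0.60 ± 0.19 SE, adjusted p = 0.0144), where its lowest library held 31 counts, and was called in neither of the other comparisons. Glabridin over melanosome was called for CCNE2 with library totals alone (-0.53, adjusted p = 0.0353) and with limma on log2(TPM + 1) (-0.24, adjusted p = 0.00945). CDC25A, the phosphatase that activates CDK2, rose a little with melanosomes (0.29 ± 0.11 SE, adjusted p = 0.0416).

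CDK2, the cyclin E partner kinase, had the largest rise of the 53 with melanosomes and lies within the span of another gene. It had 221, 318 and 188 CPM in glabridin, 247, 250.3 and 255 CPM in melanosome and 43.6, 44.6 and 45.2 CPM in control libraries, a 5.64-fold difference for melanosome over control (2.50 ± 0.16 SE, adjusted p = 3.62e-07) and a 5.45-fold one for glabridin over control (2.45 ± 0.16 SE, adjusted p = 2.45e-07). CDK2 (chromosome 12, 55966769 to 55972784, + strand, GRCh38) lies wholly within the span of PMEL (chromosome 12, 55954105 to 55973317, - strand, GRCh38), the gene of the melanosome fibril protein, which is read from the opposite strand. PMEL had 1383, 2361 and 1063 CPM in glabridin, 2037, 2122 and 2167 CPM in melanosome and 3.46, 2.85 and 3.29 CPM in control libraries. Both genes were highest in glabridin replicate 2 and lowest in control. The glabridin libraries ran from replicate 2 through 1 to 3 for the pair, an order that 25 of the 53 genes had. How many of all tested genes had that order was not counted. Their annotated exons share 89 of 3894 CDK2 bases (2.29%), and the shared gene span is 6016 bases long. In TPM, CDK2 over PMEL was 0.149, 0.126 and 0.165 in glabridin libraries, 0.113, 0.110 and 0.110 in melanosome libraries and 11.7, 14.6 and 12.8 in control. The libraries were made to keep strand, per the labels' protocols, but no source used here says whether counting used it. Whether reads of PMEL were counted for CDK2, and how many, was not tested. Glabridin over melanosome was not called for CDK2 (-0.05 ± 0.15 SE, adjusted p = 0.811), but was without glabridin replicate 2 (-0.29, adjusted p = 0.00253).

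**Figure D4:**
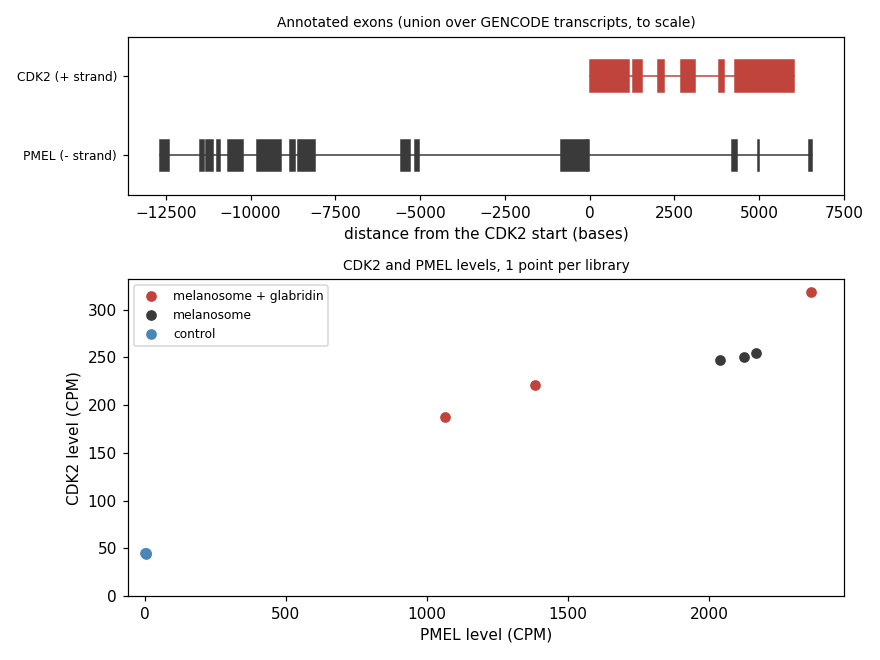
Upper panel, annotated exons (boxes, to scale) of CDK2 and PMEL by distance from the CDK2 start in bases; lower panel, CDK2 against PMEL in CPM, 1 point per library. CDK2 lies inside the PMEL span, and CDK2 is at 43.6 to 45.2 CPM in the 3 control libraries, where PMEL is at 2.85 to 3.46 CPM, and at 188 CPM or more in the other 6.

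Other genes of the set overlap neighbours too, on the opposite strand or on their own. Whether reads of those neighbours were counted for them was not tested either. TYMS shares 39.1% of its annotated exon bases with ENOSF1 on the opposite strand, and CCNE2 shares 37.0% with INTS8. The shares were 8.94% for MCM7 with AP4M1 and 6.70% for FEN1 with TMEM258, both on opposite strands, and 8.64% for POLD1 with a partner on its own strand. Further genes of the set shared 5.72% (RFC5 with WSB2) or less. Transcript length and GC content followed the fold changes weakly, as a description across genes that are not independent. For glabridin over melanosome, Spearman's rho was -0.29 with length and -0.13 with GC over the 53 genes, against -0.12 and -0.02 over 13855 tested genes. For melanosome over control it was -0.09 and 0.36 over the 53, against -0.18 and 0.30. For glabridin over control it was -0.34 and 0.27 over the 53, against -0.18 and 0.22.

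Beyond the set, 65 further genes of replication and G1/S control gave a more mixed picture. For glabridin over melanosome 12 were higher, 21 lower and 32 not called (median -0.08), where 23.7% of all tested genes were called higher and 20.2% lower. For melanosome over control 29 were higher, 11 lower and 25 not called (median 0.24), against 29.5% and 33% of all tested genes. For glabridin over control 28 were higher, 17 lower and 20 not called (median 0.13), against 37.6% and 32.7%. The 3 largest rises with glabridin over melanosome among them were those of inhibitors of cyclin-dependent kinases. CDKN1A, which encodes p21, had 819, 723 and 762 CPM in glabridin, 238, 252 and 254 CPM in melanosome and 215, 214 and 212 CPM in control libraries. Glabridin libraries were 3.10-fold above melanosome (1.63 ± 0.06 SE, adjusted p = 3.09e-08) and 3.59-fold above control, whereas melanosome lay slightly above control (0.21 ± 0.06 SE, adjusted p = 0.00837). CDKN1B, encoding p27, had 174, 180.3 and 201 CPM in glabridin, 106, 102 and 90.1 CPM in melanosome and 79.6, 78.0 and 85.6 CPM in control libraries, with glabridin highest and no overlap between groups (0.90 ± 0.08 SE, adjusted p = 1.12e-05 for glabridin over melanosome). CDKN1C, encoding p57, was low but in the same order, with 2.56, 2.99 and 1.82 CPM in glabridin, 1.28, 1.29 and 1.32 CPM in melanosome and 0.641, 0.497 and 0.593 CPM in control libraries (0.91 ± 0.21 SE, adjusted p = 0.00462 for glabridin over melanosome).

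CCND1, cyclin D1, which drives cells through G1, had 245, 312 and 239 CPM in glabridin, 480.1, 479.7 and 484 CPM in melanosome and 316, 328 and 319 CPM in control libraries. Melanosome libraries were the highest and glabridin the lowest, without overlap (-0.86 ± 0.09 SE, adjusted p = 3.45e-05 for glabridin over melanosome, 0.58 ± 0.09 SE, adjusted p = 0.000257 for melanosome over control). CHEK1, the kinase of the replication checkpoint, rose at both steps as CDC6 did, with 25.1, 22.6 and 27.2 CPM in glabridin, 17.6, 17.1 and 18.8 CPM in melanosome and 12.8, 11.1 and 12.9 CPM in control libraries (0.48 ± 0.10 SE, adjusted p = 0.00279 for glabridin over melanosome). CLSPN, its adaptor at stalled forks, had 1.55, 0.678 and 1.75 CPM in glabridin, 4.42, 4.88 and 3.93 CPM in melanosome and 2.75, 1.63 and 1.63 CPM in control libraries and fell with glabridin (-1.72 ± 0.30 SE, adjusted p = 0.00106). TICRR, which helps CDC45 load at origins, fell as well, with 5.63, 5.43 and 7.64 CPM in glabridin, 11.8, 11.7 and 11.2 CPM in melanosome and 4.38, 4.25 and 3.46 CPM in control libraries (-0.89 ± 0.14 SE, adjusted p = 0.000624). RB1, the repressor of E2F factors, was not called for glabridin over melanosome (0.07 ± 0.19 SE, adjusted p = 0.798) and fell with melanosomes against control (-0.60 ± 0.19 SE, adjusted p = 0.0176).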

How the data were processed

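Raw whole-number counts for every gene were deposited by the authors for each of the 9 libraries, beside TPM and FPKM values per the file headers; FPKM was not used, and a separate deposited TPM table held the same TPM values (largest difference 0). Per the labels' protocols the libraries were strand-specific, made from poly(A) RNA with dUTP and read as pairs. The build was hg38, per the submitters' processing notes. Neither aligner nor counter, strand setting or annotation is named in the sources used here. Between 69.9% and 72.2% of counts from 1 to 49 were even in each library, so small counts may not be single fragments.

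Of 20263 identifiers, 20148 matched a symbol. Counts were fitted with edgeR 4.0.16 in R 4.3.3 (TMM factors, filterByExpr by group, quasi-likelihood test, group as the only term, all 9 libraries), and p-values received Benjamini-Hochberg adjustment over the 13912 genes that passed the filter. In simulated counts with known changes, the fit recovered 56.7% to 65.7% of 1.5-fold changes and 91% to 97% of 2-fold changes. Each simulation changed 67 genes by 1.5-fold, 67 by 2-fold and 66 by 4-fold, of at least 13745 tested. In the data 43.9% to 70.3% of tested genes were called, so these shares need not hold there. A gene that was not called may still differ. Positions come from GENCODE 29 (GRCh38) and promoter sequences from RefSeq (GRCh38.p14). Titles and treatment labels gave the groups.

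The set, the role classes, the 65 further genes and the markers were chosen with earlier results of these data known. Values in every library are given for 33 genes of the set taken by rule: per role class, the 2 largest changes for glabridin over melanosome and the 2 for melanosome over control, 8 key genes (CDC6, CDT1, GMNN, E2F1, PCNA, CCNE1, CCNE2 and RRM2), and those called against the majority. ORC1, MCM2, MCM4, MCM6, MCM7, RRM1, DNMT1, E2F3 and IVL and the other genes named beside them were added after their values were seen. Further genes were named as the 3 largest rises and 3 largest falls with glabridin, plus CDKN1A, CCND1, RB1, RRM2B and CHEK1; 1 gene that this rule takes is not reported here. Alternatives were RLE factors, library totals, no filter, DESeq2 1.42.0, a fit of the compared groups alone, a replicate block, limma 3.58.1 on log2(TPM + 1), and leaving out each library.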

Additional observations from a re-analysis of the deposited data

How the results depend on the processing

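Of 63 counts of calls (set and all genes) recomputed under the 7 other settings, 61 stayed within 1.5 times the reported count, as did all 54 that left out a library. The 2 exceptions concern genes of the set lower with melanosomes than in control: 2 as reported (ORC2 and RFC1), 0 with library totals alone and 0 with limma on log2(TPM + 1). At an unadjusted p under 0.05 these counts were 3, 1 and 0, and DESeq2 called 2. The log2 median over all genes moved to -0.17 for glabridin over melanosome and 0.11 for melanosome over control with library totals alone, from 0.01 and -0.06 with TMM. The medians of the set were then -0.58 and 0.76. The share of all calls that were higher was 54% for glabridin over melanosome, against 29% with library totals, 27.6% with limma and 41.4% without glabridin replicate 1, and 47.2% for melanosome over control, against 66% and 68.5% in the first 2 of these. Leaving out libraries gave 28 to 39 genes of the set lower with glabridin than with melanosomes alone, and 36 to 39 higher with melanosomes than in control. For glabridin over control these counts were 19 to 28 higher and 9 to 12 lower. Deviations of same-numbered libraries from their group means correlated between -0.234 and 0.05. Differently numbered libraries were not compared, so this cannot show whether replicate numbers mark a shared culture or day. With the replicate block, 32 genes of the set fell and 1 rose for glabridin over melanosome, and 39 rose for melanosome over control; MCM3 lost its call there (adjusted p = 0.0521), as GINS4 (adjusted p = 0.058) and RPA1 (adjusted p = 0.0681) did for glabridin over control. Of single genes taken by rule, no call changed sign; calls were lost in 14 and gained in 26 of 693 values under other settings, and lost in 30 and gained in 10 of 594 without a library. Low counts limit CCNE2, POLE2, MCM10 and CDC7, whose SEs are among the widest. The SE of E2F1 was as wide as that of CDC7 (0.19 each for melanosome over control, rounded up for CDC7 at 0.185), though its lowest library held 278 counts.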
